A study of Mus musculus with 42 samples.

Results

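The genes described here are the 5 subunits of NF-κB, *Nfkb1*, *Nfkb2*, *Rela*, *Relb* and *Rel*, and 5 genes that restrain or tune the pathway, *Nfkbia*, *Nfkbie*, *Nfkbiz*, *Tnfaip3* and *Birc3*. They were chosen by name, and all 10 were present among the 21674 genes of the expression table. NF-κB is a family of dimeric transcription factors that IκB proteins hold in the cytoplasm of resting cells. Inflammatory receptors activate IκB kinase, which marks IκB for destruction and frees the canonical dimers of p50 (*Nfkb1*), p65 (*Rela*) or c-Rel (*Rel*), while the non-canonical branch uses the kinase NIK (*Map3k14*) to process p100 (*Nfkb2*) into p52, the partner of RelB. The freed dimers switch on genes for adhesion molecules and chemokines in arterial endothelium, and they also switch on their own inhibitors, so that the messages of IκBα (*Nfkbia*) and A20 (*Tnfaip3*) are both brakes on the pathway and common readouts of it.

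RNA was sequenced from the carotid intima of mice after partial ligation of the left carotid artery, in which all its distal branches but the superior thyroid artery are tied off. The ligated artery carries low flow, the contralateral artery of ligated mice carries high flow, and sham-operated arteries keep normal flow. The 42 libraries analysed here fall into 35 intimal libraries, each made from a pool of 3 to 5 arterial flushes, and 7 libraries of cultured aortic endothelial cells. The question put to these data is how the pathway's own components moved with flow, with depletion of recruited blood cells, with endothelial loss of the splicing factor Rbfox2, and in culture.

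The untreated mice were male C57BL/6J animals of 6 to 7 weeks, sampled at 48 h as 3 pools each of low flow (lettered A, B and C), high flow and sham. Treated mice, also male C57BL/6J of 6 to 7 weeks, were sampled at 48 h of low flow, with 2 libraries each for control IgG, platelet-depleting anti-GPIba, granulocyte-depleting anti-Gr1, PBS liposomes and macrophage-depleting clodronate liposomes. Contralateral arteries of mice given IgG or PBS liposomes gave 2 high-flow libraries each, and 1 further library each of PBS and clodronate liposomes was made with shorter reads. At 7 d the mice had a C57 background, were 2 to 7 months old and of both sexes. All of them carried *Rosa26-mTmG* and *Rbfox2* lox/lox, and the EC-KO mice also carried *Cdh5(PAC)-CreERT2*, a tamoxifen-inducible Cre driven by the VE-cadherin promoter. The controls were littermates without Cre, and the Cre is meant to act in endothelium and not in recruited cells, in which *Rbfox2* was not measured here. There were 3 low-flow and 2 high-flow libraries per genotype. The cultures were 1 immortalised TetOn-SV40 aortic endothelial line of *Cdh5(PAC)-CreERT2; Rosa26-mTmG* origin, given nothing, 10% plasma, platelets with macrophages (bone-marrow-derived monocytes), or all of these for 48 h, and sorted primary aortic cells (Cd31+ and Icam2+, *Rbfox2* control and EC-KO, 7 days in culture, and an eGFP+ sort, 5 days in culture).

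Deposited counts came to 4064477 to 6794904 per untreated pool, 12286104 to 19035957 per treated library, 10318685 to 18633538 per 7 d library and 4989843 to 16394043 per cultured library. The single shorter-read PBS and clodronate liposome libraries held 5223017 and 5901210. Levels below are FPKM, the fragments of a gene relative to its length and to the size of the library, rescaled with TMM factors, which correct for the share of a library taken by a few genes. *Actb* held 10.6% and 10.1% of all counts in low-flow pools A and B, against 3.74% in pool C, and its part in the correction was not tested. The correction was largest in pools A and B, with TMM factors of 0.438 and 0.444 against 0.914 in pool C. Without it the median log2 fold change of all genes moved from −0.07 to −0.78 between low and high flow and from −0.04 to −0.80 between low flow and sham. The 11 endothelial marker genes together held 0.317 to 1.85% of counts in the intimal libraries and 0.243 to 0.591% in the primary cells but only 0.0341 to 0.0382% in the immortalised line, in which the 5 fibroblast markers held 0.118 to 0.203%. *Rbfox2* stood at 2.80, 4.83 and 2.42 FPKM in the low-flow control libraries and at 0.946, 0.152 and 0.532 in the low-flow EC-KO libraries. Replicates are pools of animals, and p-values below measure only the spread between such pools. Where groups are said not to overlap for a gene, the share of all genes without overlap was not counted.

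The promoters of several of these genes carry the sequence that NF-κB itself binds, and these stretches are shown because NF-κB is known to act on its own regulators through such sites. Promoter windows from 250 bases before to 50 bases after a transcript start (RefSeq, GRCm38.p6) were at hand for 7 of the 10 genes, and the 10-base kappaB consensus was searched in them on both strands. It occurred in the windows of *Nfkb2*, *Rel*, *Nfkbia*, *Nfkbie* and *Tnfaip3* and not in those of *Rela* or *Birc3*, against 9.55% of the 27025 genes and 8.46% of the 32851 windows in the same table. Each line gives 26 bases in the direction of the gene with the match in capitals, and where 2 matches overlap by all but 1 base only the first is printed.
Nfkb2, 39 bases before a start, chr19:46304690-46304715, plus strand: atcgtcacGGGAATTCCCcccctcgg
Nfkb2, 11 bases before the same start, chr19:46304718-46304743, plus strand: ggccgaaaGGGGCTTTCCcggctgga
Nfkb2, 236 bases before another start, chr19:46305451-46305476, plus strand: cgacggcaGGAATGTCCCcacaaaag
Nfkb2, 10 bases after that other start, chr19:46305697-46305722, plus strand: gtattttcGGGACTTTCCtaagcagc
Rel, 92 bases before the start, chr11:23771044-23771069, minus strand: taagcagcGGGAAATCCCcccccctc
Nfkbia, 29 bases before the start, chr12:55492659-55492684, minus strand: actggcttGGAAATTCCCcgcgcctg
Nfkbie, 106 bases before the start, chr17:45555586-45555611, plus strand: agcaaacaGGGGGATTCCggaggggc
Tnfaip3, 125 bases before the start, chr10:19015518-19015543, minus strand: ctcacgcgGGGACACCCCggggcggg
Tnfaip3, 12 bases before the same start, chr10:19015405-19015430, minus strand: tttccatcGGAAATCCCCctgttggc
A match describes these letters and is no measurement of binding. The genes without a match among the windows at hand, *Rela* and *Birc3*, each had 1 window.

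The gene models that were counted lie, on mm9, at chr3:135247619-135354511 for *Nfkb1*, chr19:46379227-46386580 for *Nfkb2*, chr19:5637483-5648130 for *Rela*, chr7:20191566-20214787 for *Relb* and chr11:23641514-23670970 for *Rel*. The regulators lie at chr12:56590398-56593634 for *Nfkbia*, chr17:45692665-45700118 for *Nfkbie*, chr16:55811488-55839012 for *Nfkbiz*, chr10:18720716-18735463 for *Tnfaip3* and chr9:7848699-7873186 for *Birc3*. All of them are protein-coding genes, and each value is for the gene as a whole.

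Per length, *Nfkbia* was the most abundant of the 10 messages in the mean of every intimal group, and *Rela* was second. Across the 35 intimal libraries *Nfkbia* ranged from 71.8 to 489 FPKM and *Rel*, the least abundant, from 0 to 2.98 FPKM. In 1 of these libraries, a low-flow control library at 7 d, *Rela* at 72.9 FPKM slightly exceeded *Nfkbia* at 71.8. The *Rel* value of 0 came from a high-flow control library at 7 d.

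**Figure D1:**
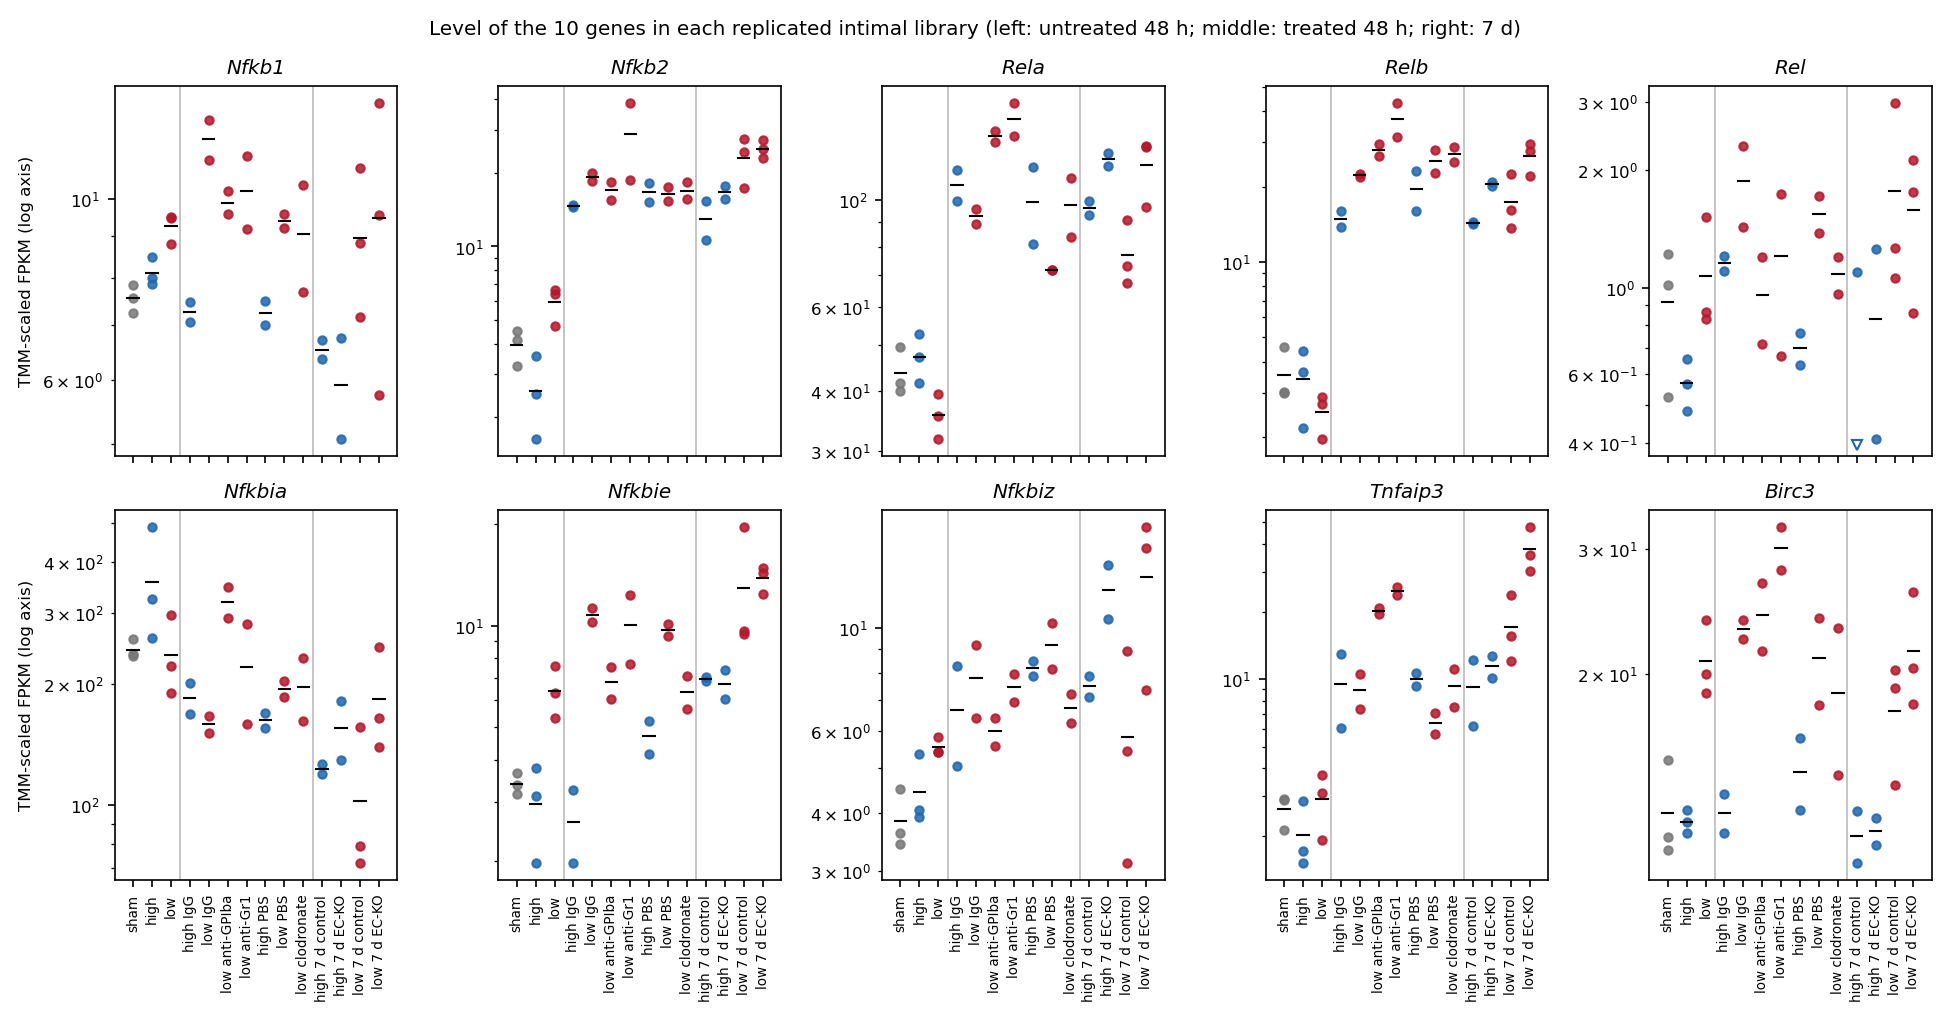
Each panel plots the level of a gene in TMM-scaled FPKM on a log axis, with 1 point per library, a bar at the group mean and the groups along the bottom (grey sham, blue high flow, red low flow), and an open triangle at the foot of the *Rel* panel for the library listed at 0. The vertical lines separate untreated 48 h, treated 48 h and 7 d libraries, and the untreated pools (100 bp reads) sit below the others for *Nfkb2*, *Rela*, *Relb* and *Tnfaip3*.

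Levels were not comparable between libraries of different read length. In the 12 libraries of 100 bp reads *Relb* lay at 1.96 to 6.79 FPKM, and in the 26 libraries of 150 bp reads from intima and primary cells it lay at 13.7 to 43.2. *Nfkb2* (1.63 to 8.45 against 10.6 to 38.7 FPKM), *Rela* (31.8 to 52.6 against 67.1 to 177) and *Tnfaip3* (1.51 to 4.62 against 5.68 to 47.6) did not overlap between them either. The deposited counts of 10 of the longer-read libraries after trimming to 100 bp gave nearly the same levels, with median ratios of trimmed to untrimmed from 0.951 to 1.02 over the 10 genes. The shorter-read and longer-read libraries also differ in run and in part in treatment, and every test below is within libraries of 1 read length. Within low flow with PBS liposomes, *Relb* was at 5.88 FPKM in the shorter-read library and at 22.7 and 27.9 in the longer-read ones. *Rela* was at 35.9 FPKM against 71.4 and 71.6 in the same libraries.

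At 48 h in untreated mice, 3 of the genes rose under low flow against the contralateral high-flow artery. These were *Nfkb2*, the p100/p52 subunit of the non-canonical branch, *Nfkbie*, which encodes IκBε, and *Birc3*, which encodes the ubiquitin ligase cIAP2. They were 3 of the 9 genes tested, *Rel* falling below the filter on low counts, and 46.2% of all 11236 genes tested passed the same threshold (an adjusted p of 0.05 in edgeR's quasi-likelihood test), 23.6% in the higher direction. The 9 genes had a median log2 fold change of 0.35, beside −0.07 for all genes. In bulk intimal RNA, fewer cells of a type and less RNA per cell cannot be told apart.

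Among the subunits, *Nfkb2* stood at 6.37, 4.72 and 6.60 FPKM in low-flow pools A, B and C and at 2.48, 3.55 and 1.63 FPKM in the high-flow pools. Every low-flow pool lay above every high-flow pool. The log2 fold change was 1.24 ± 0.31 (SE, n = 3 pools each, edgeR adjusted p = 0.00741). Against sham, where *Nfkb2* was at 4.52, 3.26 and 4.12 FPKM, the log2 fold change of 0.56 did not pass (adjusted p = 0.0821), although the pools again did not overlap.

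The other subunits showed no change that passed the test. *Rela*, the transactivating p65 subunit, was at 31.8, 35.5 and 39.5 FPKM under low flow and at 52.6, 47.1 and 41.5 under high flow, a log2 fold change of −0.36 ± 0.18 (adjusted p = 0.127). The low-flow pools were all below the high-flow pools, in the direction opposite to *Nfkb2*. *Relb*, the partner of p52, had a log2 fold change of −0.39 (adjusted p = 0.38), with pools that overlapped, and *Nfkb1* one of 0.22 (adjusted p = 0.298). *Rel* ranged from 0.832 to 1.51 FPKM under low flow and from 0.484 to 0.655 under high flow, on counts of 4 to 11 fragments per pool, too few for the test.

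Of the IκB family, *Nfkbie* rose and *Nfkbia* did not. *Nfkbie* was at 5.31, 7.57 and 6.33 FPKM in the low-flow pools, 3.77, 3.12 and 1.97 in the high-flow pools and 3.36, 3.17 and 3.66 in the sham pools. Its low-flow pools lay above all 6 others, with log2 fold changes of 1.14 ± 0.30 against high flow (adjusted p = 0.0102) and 0.87 ± 0.24 against sham (adjusted p = 0.0223). *Nfkbia* was at 190, 296 and 222 FPKM under low flow, at 489, 325 and 260 under high flow and at 234, 237 and 258 in sham pools. The low and high pools overlapped, the highest value being a high-flow pool, and the log2 fold change was −0.56 ± 0.30 (adjusted p = 0.143). *Nfkbiz*, whose nuclear product IκBζ works with p50 as a coactivator, moved by 0.35 against high flow (adjusted p = 0.223) and 0.49 against sham (adjusted p = 0.0806).

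*Birc3* was at 18.8, 20.0 and 23.8 FPKM in the low-flow pools and at 12.4, 12.9 and 11.9 in the high-flow pools. Those pools did not overlap, and the log2 fold change was 0.79 ± 0.18 against high flow (adjusted p = 0.00442). Against sham, at 11.3, 15.1 and 11.8 FPKM, it was 0.69 ± 0.19 (adjusted p = 0.0212). *Tnfaip3*, a deubiquitinase and inhibitor of IκB kinase activation, lay between 1.92 and 3.73 FPKM under low flow and between 1.51 and 2.86 under high flow, which overlap (log2 fold change 0.58 ± 0.33, adjusted p = 0.176).

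Against sham, therefore, 2 of 9 genes passed, *Nfkbie* and *Birc3*, where 40.3% of 11164 genes did, 20.6% higher and 19.7% lower. Both calls were lost when certain single pools were left out, with similar fold changes. *Nfkbie* lost its call without low-flow pool B or sham pool G or H, at log2 fold changes of 0.77, 0.85 and 0.84, and *Birc3* without low-flow pool C or sham pool G, at 0.57 and 0.60. Without pool G the genes called fell from 4499 to 2513 and included none of the 9. Low flow is shared by the comparisons with high flow and with sham, so their values are not independent. Between high flow and sham, edgeR called none of the 9 genes and none of 11030 genes (0%), while 868 of all genes and none of the 9 had an unadjusted p under 0.05. DESeq2 found 101 genes there, none of the 10. The largest shifts were *Nfkb2* at −0.67 and *Nfkbia* at 0.50 on the log2 scale (adjusted p = 0.637 and 0.638).

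These calls depend on how the low-flow pools are scaled. Scaled to total counts, the log2 fold changes against high flow became 0.65 for *Nfkb2*, 0.53 for *Nfkbie* and 0.21 for *Birc3*, with adjusted p of 0.346, 0.463 and 0.727, while *Nfkbia* reached −1.20 (adjusted p = 0.00221). Under the same scaling *Nfkb1* turned from 0.22 to −0.39 and *Nfkbiz* from 0.35 to −0.29, and 1044 genes were called higher and 3084 lower in place of 2652 and 2543. Against sham *Nfkbie* became 0.21 (adjusted p = 0.781) and *Birc3* 0.07 (adjusted p = 0.924), *Nfkb1*, *Nfkb2*, *Nfkbiz* and *Tnfaip3* turned negative, and 642 genes were called higher and 2716 lower in place of 2304 and 2195. With TMM scaling but without pools A and B, the log2 fold changes against high flow were 1.44 for *Nfkb2* (adjusted p = 0.032), 1.03 for *Birc3* (adjusted p = 0.011) and 1.19 for *Nfkbie* (adjusted p = 0.0627). Without those pools neither gene passed against sham (*Nfkbie* 0.90, adjusted p = 0.138, and *Birc3* 0.91, adjusted p = 0.103).

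Other cell types moved with flow in these pools. The 14 macrophage markers together made up 0.217 to 0.333% of counts in low-flow pools, 0.00697 to 0.0169% in high-flow pools and 0.0216 to 0.0658% in sham pools. The 9 neutrophil markers made up 0.0247 to 0.0487% under low flow and 0.000749 to 0.0024% under high flow, and the 7 smooth muscle markers 0.233 to 0.432% and 0.0554 to 0.0652%. The endothelial markers ran the other way, at 0.317 to 0.474% under low flow and 0.734 to 0.946% under high flow. The 6 fat cell markers made up 0.000162 to 0.000180% under low flow, 0.00883 to 0.137% under high flow and 0.000566 to 0.00516% in sham pools. All these shares are of total counts, without TMM scaling. The TMM factors were 0.438, 0.444 and 0.914 in low-flow pools A, B and C, and 0.8475 to 0.9337 in the high-flow pools. Shares in pools A and B are therefore low beside the TMM-scaled levels of the genes. The part of these cell types in the changes of *Nfkb2*, *Nfkbie* and *Birc3* was not tested.

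The rest of the pathway was followed through 4 fixed lists. Their values are TMM-scaled, and the dependence on scaling described above for the untreated pools is not given for these lists. Of 20 kinases and adaptors upstream of IκB, 5 rose and 1 fell at low against high flow, where 46.2% of all genes passed, with a median log2 fold change of 0.12 beside −0.07 for all genes. The largest changes were *Map3k14*, the kinase NIK that acts on p100 (1.29 ± 0.32, adjusted p = 0.00721), *Bcl10*, a signalling adaptor (1.19 ± 0.17, adjusted p = 0.00026), *Myd88*, the adaptor of Toll-like and IL-1 receptors (1.09 ± 0.18, adjusted p = 0.000616), and *Traf3*, which holds NIK in check (0.90 ± 0.28, adjusted p = 0.0239). *Map3k14* averaged 2.85 ± 0.80 FPKM (SD) under low flow and 1.14 ± 0.19 under high flow, with no overlap. *Birc2*, the close relative of *Birc3*, was the member of that list that fell.

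Of 9 receptors tested, 2 rose and 1 fell, with a median of −0.08. *Cd40*, a receptor of the non-canonical branch, fell from 36.9 ± 5.8 FPKM (SD, n = 3) under high flow to 15 ± 1.5 under low flow (log2 fold change −1.25 ± 0.19, adjusted p = 0.000414), while *Tnfrsf1b*, a TNF receptor, rose by 1.13 and *Il1rap*, the IL-1 receptor accessory protein, by 0.69 on the log2 scale (adjusted p = 0.00312 and 0.0259). Of 13 other regulators tested, 2 rose and 1 fell, with a median of 0.13. *Tnip1*, a partner of A20, rose by 1.13 and *Nfkbib*, which encodes IκBβ, by 0.87, while *Tnip2* fell, with a log2 fold change of −0.72 (adjusted p = 0.00401, 0.00811 and 0.0172).

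Of 19 target genes tested, 8 rose and 2 fell, where 23.6% of all genes rose and 22.6% fell, with a median log2 fold change of 0.69. *Il1b*, which encodes the cytokine IL-1β, was at 156, 194 and 91.7 FPKM under low flow and at a mean of 0.955 ± 0.42 (SD) under high flow, the latter on 2 to 8 fragments per pool (log2 fold change 7.19, adjusted p = 1.52e-06). *Ccl2*, a monocyte chemokine, rose by 4.47 ± 0.68 on the log2 scale, *Sele*, the endothelial adhesion molecule E-selectin, by 4.17 ± 0.34, and *Bcl2a1a*, a survival gene with near-identical paralogs that can share its reads, by 3.84 ± 0.70. *Sele* was at 50.7, 56.4 and 55.3 FPKM in low-flow pools and at 1.40, 4.81 and 2.64 in high-flow pools. The 2 that fell were *Sod2* and *Bcl2l1*, and the leukocyte and endothelial shares given above apply to this list too. *Il1b* and *Bcl2a1a* are also expressed by leukocytes. Against sham, where 20.6% of all genes rose and 19.7% fell, the same lists gave 5 up and none down of 19 upstream genes, 2 up and 1 down of 9 receptors, 2 up and 1 down of 13 other regulators, and 7 up and 1 down of 20 targets, with medians of 0.14, −0.11, 0.01 and 0.44 beside −0.04 for all genes.

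The antibody and liposome controls gave a second set of low and high flow libraries. With IgG, 3 of the 10 genes rose under low flow, *Nfkb1*, *Nfkbie* and *Birc3*, where 40.5% of 13401 genes passed, 22.8% higher and 17.7% lower. With PBS liposomes only *Nfkbie* passed, where 35% of genes did and 19.6% in the higher direction. In both settings the low-flow and high-flow libraries were sequenced in different runs, so run and flow cannot be told apart here.

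*Nfkbie* was at 11.3 and 10.3 FPKM in the low-flow IgG libraries and at 1.97 and 3.24 in the high-flow ones (log2 fold change 2.10 ± 0.33, n = 2 each, adjusted p = 0.00141). With PBS liposomes it was at 9.33 and 10.2 FPKM under low flow and at 4.17 and 5.22 under high flow (1.12 ± 0.32, adjusted p = 0.0197). The groups did not overlap in either setting. Among the 10 genes, however, only *Nfkbiz* and *Tnfaip3* overlapped with IgG, and only *Nfkb2*, *Relb* and *Nfkbiz* with PBS liposomes. The call with IgG held when any 1 of the 4 libraries was left out, and that with PBS liposomes was lost in 3 of 4 such fits, with adjusted p from 0.0582 to 0.144 for those 3.

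*Birc3* was at 23.8 and 22.4 FPKM under low flow with IgG and at 13.5 and 11.9 under high flow, without overlap (0.92 ± 0.26, adjusted p = 0.0158), and *Nfkb1* at 11.2 and 12.5 against 7.06 and 7.49 FPKM, again without overlap (0.76 ± 0.22, adjusted p = 0.018). The *Birc3* call was lost in all 4 fits that left out a library (adjusted p 0.052 to 0.0807), with log2 fold changes of 0.85 to 1.01, and the *Nfkb1* call in 3 of 4, with 0.68 to 0.85 over the 4 fits. With PBS liposomes both were smaller, *Birc3* at 0.60 (adjusted p = 0.0907) and *Nfkb1* at 0.44 (adjusted p = 0.14). *Nfkb2* moved by 0.46 with IgG and by 0.04 with PBS liposomes (adjusted p = 0.246 and 0.937), and whether these differ from the untreated change was not tested. *Relb* moved by 0.64 with IgG (adjusted p = 0.0561), and scaled to total counts by 0.72, which passed (adjusted p = 0.0326). The macrophage markers made up 0.224 to 0.244% of counts under low flow with IgG and 0.00757 to 0.0278% under high flow, and 0.133 to 0.222% against 0.0115 to 0.0213% with PBS liposomes. With IgG the endothelial markers stood at 0.424 to 0.566% under low flow and 1.84 to 1.85% under high flow, and the smooth muscle markers at 0.439 to 0.475% and 0.0552 to 0.0805%. With PBS liposomes they stood at 0.366 to 0.395% and 0.965 to 1.38%, and at 0.304 to 0.590% and 0.0515 to 0.0941%. The part of these shares in the changes of *Nfkbie*, *Birc3* and *Nfkb1* was not tested.

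**Figure D2:**
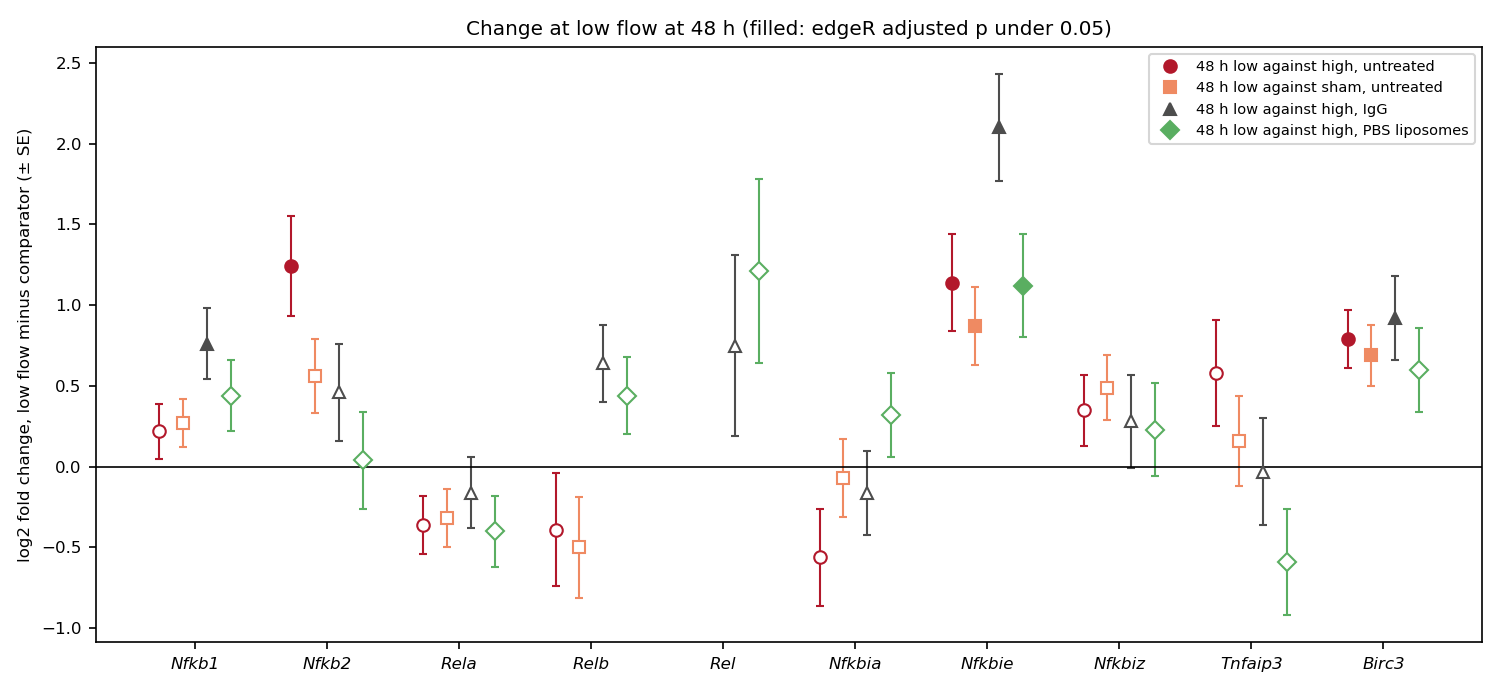
The log2 fold change of each gene at low flow, with its standard error, is plotted for 4 comparisons at 48 h, with filled symbols for an edgeR adjusted p under 0.05; *Rel* was not tested in the untreated pools. *Nfkbie* is filled in all 4 comparisons, at 1.14, 0.87, 2.10 and 1.12, and *Birc3* in 3 of them.

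In these libraries, where 40.5% of all genes passed with IgG and 35% with PBS liposomes, the target genes showed 10 up and 2 down of 23 with IgG (median 1.31, beside 0.07 for all genes) and 11 up and 1 down of 23 with PBS liposomes (median 1.50, beside 0.06). Of the targets that fell in untreated mice, *Sod2* was called higher with PBS liposomes, and *Bcl2l1* was called lower with IgG. The upstream list showed 2 up and 3 down of 20 with IgG and 3 up and 3 down with PBS liposomes, with medians of −0.18 and −0.26. *Myd88* and *Bcl10* were among those that rose in both settings, and *Ikbkb*, the catalytic IκB kinase subunit, among those that fell in both. *Map3k14* and *Traf3* were called in neither setting. No receptor of 9 passed with IgG, and with PBS liposomes 1 did, *Tlr4*, which was lower. *Cd40*, *Tnfrsf1b* and *Il1rap* were thus called in neither setting. *Nfkbib* and *Bcl3*, a nuclear IκB protein, were among the other regulators that rose in both (4 up and 2 down of 17 with IgG, 5 up and 2 down with PBS liposomes).

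After platelet depletion the messages of both classic feedback inhibitors were higher in low-flow intima. *Nfkbia* was at 292 and 347 FPKM with anti-GPIba and at 167 and 151 with IgG, a log2 fold change of 0.94 ± 0.26 (n = 2 each, adjusted p = 0.0358). *Tnfaip3* was at 20.8 and 19.4 FPKM with anti-GPIba and at 10.5 and 7.33 with IgG (1.11 ± 0.33, adjusted p = 0.0426). The groups did not overlap for either gene, but among the 10 genes they overlapped only for *Nfkbiz* and *Birc3*. These were 2 of 10 genes, both higher, where 16.5% of 13401 genes passed and 6.05% in the higher direction.

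Both calls rest on all 4 libraries. Leaving out any 1 of them reduced the genes called from 2216 to between 1 and 89, and took the adjusted p to between 0.0821 and 0.233 for *Nfkbia* and between 0.0664 and 0.282 for *Tnfaip3*, while the log2 fold changes stayed between 0.81 and 1.06 and between 0.88 and 1.39. Both passed under every other alternative tried. *Rela* lay at 132 and 140 FPKM with anti-GPIba and at 89.3 and 96.0 with IgG, without overlap, but did not pass (0.49, adjusted p = 0.137), and *Nfkbie*, at 7.53 and 6.04 against 11.3 and 10.3 FPKM, had a log2 fold change of −0.74 (adjusted p = 0.117).

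Leukocyte markers were lower with platelet depletion. The macrophage markers made up 0.0225 to 0.0323% of counts with anti-GPIba and 0.224 to 0.244% with IgG, the neutrophil markers 0.000787 to 0.00132% and 0.0117 to 0.034%, and the smooth muscle markers 0.0749 to 0.105% and 0.439 to 0.475%. The endothelial markers stood at 0.999 to 1.04% and 0.424 to 0.566%, and the 5 fibroblast markers at 0.0408 to 0.0853% and 0.0229 to 0.0258%. The part of these shifts in the rise of *Nfkbia* and *Tnfaip3* was not tested.

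Of 23 target genes tested after anti-GPIba, 1 rose and 5 fell and the other 17 did not pass, where 16.5% of all genes passed, with a median of −0.26 beside −0.04 for all genes. *Icam1*, an endothelial adhesion molecule, was the gene that rose, and *Ccl2*, *Il1b*, *Csf3*, *Ptgs2* and *Bcl2a1a* fell. Upstream, *Birc2* rose and *Bcl10* fell, and among receptors *Tnfrsf1a* rose and *Cd40* fell. Of the other regulators *Tnip2* rose and *Commd1* fell.

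**Figure D3:**
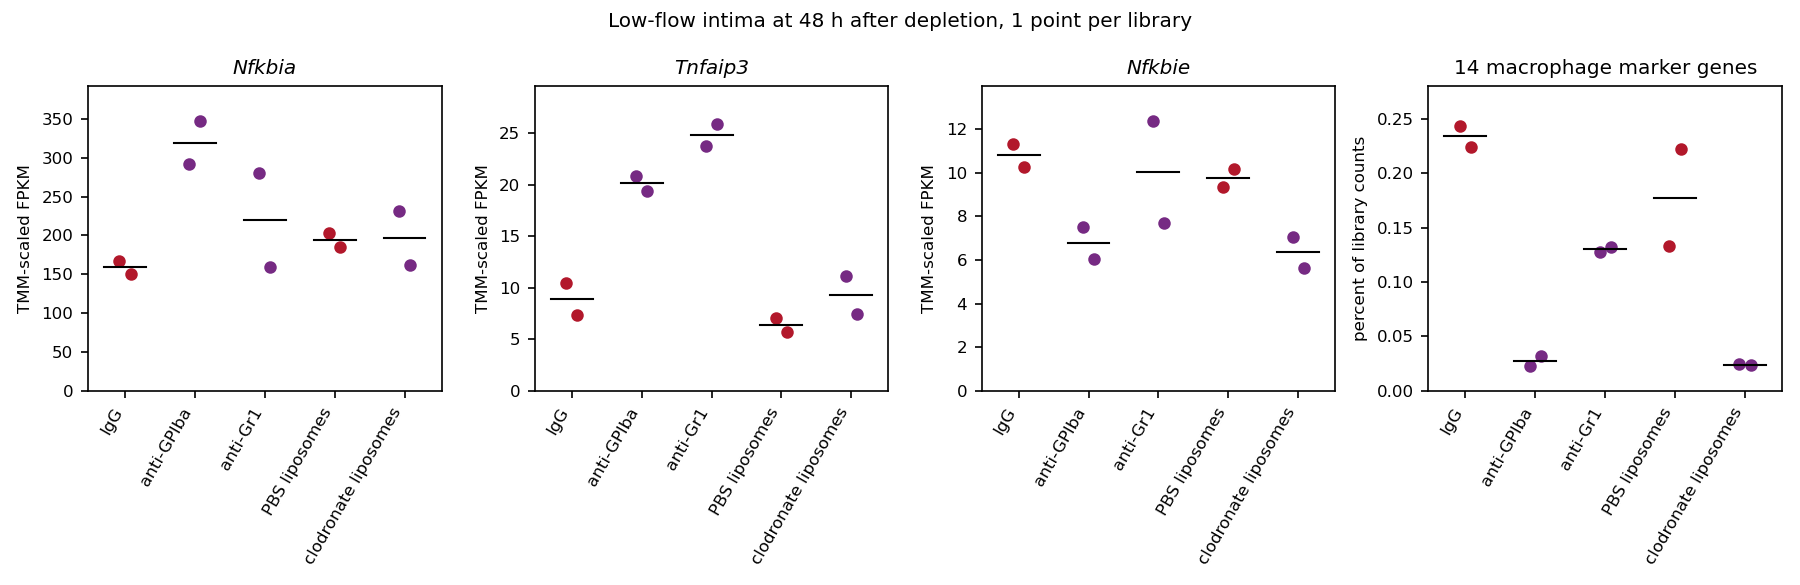
The first 3 panels plot the level of *Nfkbia*, *Tnfaip3* and *Nfkbie* in TMM-scaled FPKM in low-flow intima at 48 h for each treatment, and the last the percent of counts in 14 macrophage marker genes, with 1 point per library, bars at means, red for control treatments and purple for depletions. *Nfkbia* is highest with anti-GPIba (292 and 347), and *Tnfaip3* with anti-Gr1 (23.7 and 25.9) and anti-GPIba (20.8 and 19.4).

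After granulocyte depletion *Tnfaip3* reached 23.7 and 25.9 FPKM, above both IgG libraries and both anti-GPIba libraries. Its log2 fold change against IgG was 1.43 ± 0.33, but edgeR called no gene of 13401 in this comparison (0%), and the adjusted p was 0.243. DESeq2 called 142 genes, *Tnfaip3* among them (1.44, adjusted p = 0.0194). Of the 10 genes, *Rela* (0.62), *Relb* (0.71) and *Tnfaip3* had an unadjusted p under 0.05, as had 2432 of all genes. *Nfkb2* was uneven, at 18.8 and 38.7 FPKM. With anti-Gr1 the endothelial markers made up 0.742 to 0.960% of counts, the macrophage markers 0.128 to 0.132%, the neutrophil markers 0.00168 to 0.00305% and the fibroblast markers 0.0706 to 0.0835%, the last against 0.0229 to 0.0258% with IgG. None of these ranges overlapped with IgG, and their part in the *Tnfaip3* levels was not tested. The anti-GPIba and anti-Gr1 comparisons share their IgG libraries.

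Set directly against each other, anti-GPIba and anti-Gr1 gave no edgeR call among the 10 genes or among 13401 (0%), with 1409 genes, *Nfkb2* among them, at an unadjusted p under 0.05 and 354 genes called by DESeq2, none of the 10. *Nfkb2* had a log2 fold change of −0.79 (adjusted p = 0.397), which became −1.25 (adjusted p = 0.0443) without the anti-Gr1 library at 18.8 FPKM. *Tnfaip3* differed by −0.32 ± 0.32 (adjusted p = 0.756) and *Nfkbia* by 0.54 ± 0.26 (adjusted p = 0.489).

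Clodronate liposomes gave no edgeR call among the 10 genes, where 16 of 13401 genes passed (0.119%), all of them lower, with none of the 10 at an unadjusted p under 0.05 and none called by DESeq2, which called 462 genes. *Nfkbie* was at 7.08 and 5.64 FPKM with clodronate and at 9.33 and 10.2 with PBS liposomes (−0.68 ± 0.32, adjusted p = 0.344). In the single libraries of shorter reads *Nfkbie* was at 3.82 FPKM with clodronate (95% Poisson interval 2.77 to 5.15) and 6.42 with PBS liposomes (5.00 to 8.13), a pair that has no replicate and no test. The clodronate value was the lower in both settings. Macrophage markers made up 0.0237 to 0.0244% of counts with clodronate and 0.133 to 0.222% with PBS liposomes, neutrophil markers 0.00283 to 0.00338% and 0.0101 to 0.0298%, and endothelial markers 0.584 to 0.880% and 0.366 to 0.395%. None of these ranges overlap, and their part in the levels of the 10 genes was not tested. *Nfkbia* was at 232 and 162 FPKM with clodronate and at 203 and 186 with PBS liposomes, which overlap.

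At 7 d edgeR fitted without a block to all 4 groups together called none of the 10 genes between low and high flow, whereas other fits called some of them. With library number as a block, 1 of the 10 passed in each genotype, *Nfkb2* in controls (0.96, edgeR adjusted p = 0.0349), where 2940 of 13352 genes did, and *Tnfaip3* in EC-KO mice (1.55, edgeR adjusted p = 0.0168), where 1317 did, but whether low-flow and high-flow libraries of a number came from the same animals is not given in the sources used here. In the *Rbfox2* controls edgeR called none of the 10 genes, where 320 of 13352 genes passed (2.4%), and 4 of the 10 had an unadjusted p under 0.05, as had 3332 of all genes. *Nfkb2* was at 17.4, 27.5 and 24.4 FPKM under low flow and at 10.6 and 15.4 under high flow, without overlap (0.91 ± 0.26, adjusted p = 0.0732). DESeq2, which called 2207 genes here, called 1 of the 10, *Nfkb2* (0.94, adjusted p = 0.0123). *Nfkbie* was at 9.67, 19.6 and 9.47 FPKM under low flow and at 6.85 and 7.07 under high flow, also without overlap (0.98 ± 0.36, adjusted p = 0.131). *Birc3* and *Tnfaip3* had log2 fold changes of 0.66 and 0.97 (adjusted p = 0.138 and 0.134).

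In EC-KO mice edgeR called none of the 10 genes, where 146 of 13352 passed (1.09%, with 0.352% higher and 0.741% lower), and 4 of the 10 had an unadjusted p under 0.05, as had 2099 of all genes. *Tnfaip3* was at 47.6, 35.7 and 30.4 FPKM under low flow and at 12.7 and 10.1 under high flow. Every low-flow library lay well above both high-flow libraries, and the log2 fold change was 1.79 ± 0.37 (edgeR adjusted p = 0.0575). DESeq2, which called 948 genes here, called *Tnfaip3* (1.82, adjusted p = 0.000132), *Birc3* (0.93, adjusted p = 0.0128) and *Nfkbie* (1.13, adjusted p = 0.044). edgeR called *Tnfaip3* when low counts were not filtered (1.78, adjusted p = 0.0401), and *Tnfaip3* (1.80, adjusted p = 0.00821) and *Nfkbie* (1.11, adjusted p = 0.0366) when only the groups compared were fitted. *Nfkbie* was at 14.8, 12.4 and 14.3 FPKM against 7.39 and 6.06, without overlap (1.10 ± 0.36, adjusted p = 0.18). Cell-type markers moved with flow at 7 d as well. In controls the macrophage markers made up 0.0328 to 0.173% of counts under low flow and 0.00490 to 0.0136% under high flow, the endothelial markers 0.528 to 1.10% and 1.55 to 1.65%, and the smooth muscle markers 0.131 to 0.179% and 0.0320 to 0.0411%. In EC-KO mice these were 0.103 to 0.186% and 0.00849 to 0.0107%, 0.776 to 0.955% and 1.68 to 1.74%, and 0.112 to 0.170% and 0.0292 to 0.0340%. Their part in the changes of the 10 genes was not tested. The high-flow EC-KO libraries were themselves unlike in *Ptprc*, the pan-leukocyte gene of CD45, at 23.7 and 3.83 FPKM, against 1.67 and 1.33 in the high-flow controls, and the part of this in the comparison was not tested.

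The 7 d libraries came from 3 sequencing runs, by the names in the column headings, which are in part tied to flow. All 4 high-flow libraries were in a single run, while the low-flow libraries spanned all 3, the libraries numbered 1, a low-flow library of each genotype, being in the run of the treated low-flow libraries. Without them 3840 genes were called between low and high flow in controls, *Nfkb2* (1.09, adjusted p = 0.00815) and *Nfkbie* (1.16, adjusted p = 0.0445) among them, and 1100 genes in EC-KO mice, *Tnfaip3* (1.59, adjusted p = 0.0243) among them. Without the control library numbered 1 alone, the controls gave 3897 genes, again with *Nfkb2* (adjusted p = 0.00552) and *Nfkbie* (adjusted p = 0.0316). Leaving out any other control library left 3 to 52 genes called, and leaving out any EC-KO library 1 to 15. The difference between the genotypes in the low-flow change was tested for all 10 genes as an interaction and passed for none (0% of 13352 genes, 538 at an unadjusted p under 0.05 and 21 by DESeq2, none of the 10 by either). The interaction of *Tnfaip3*, the largest, was 0.82 ± 0.50 (adjusted p = 0.986).

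**Figure D4:**
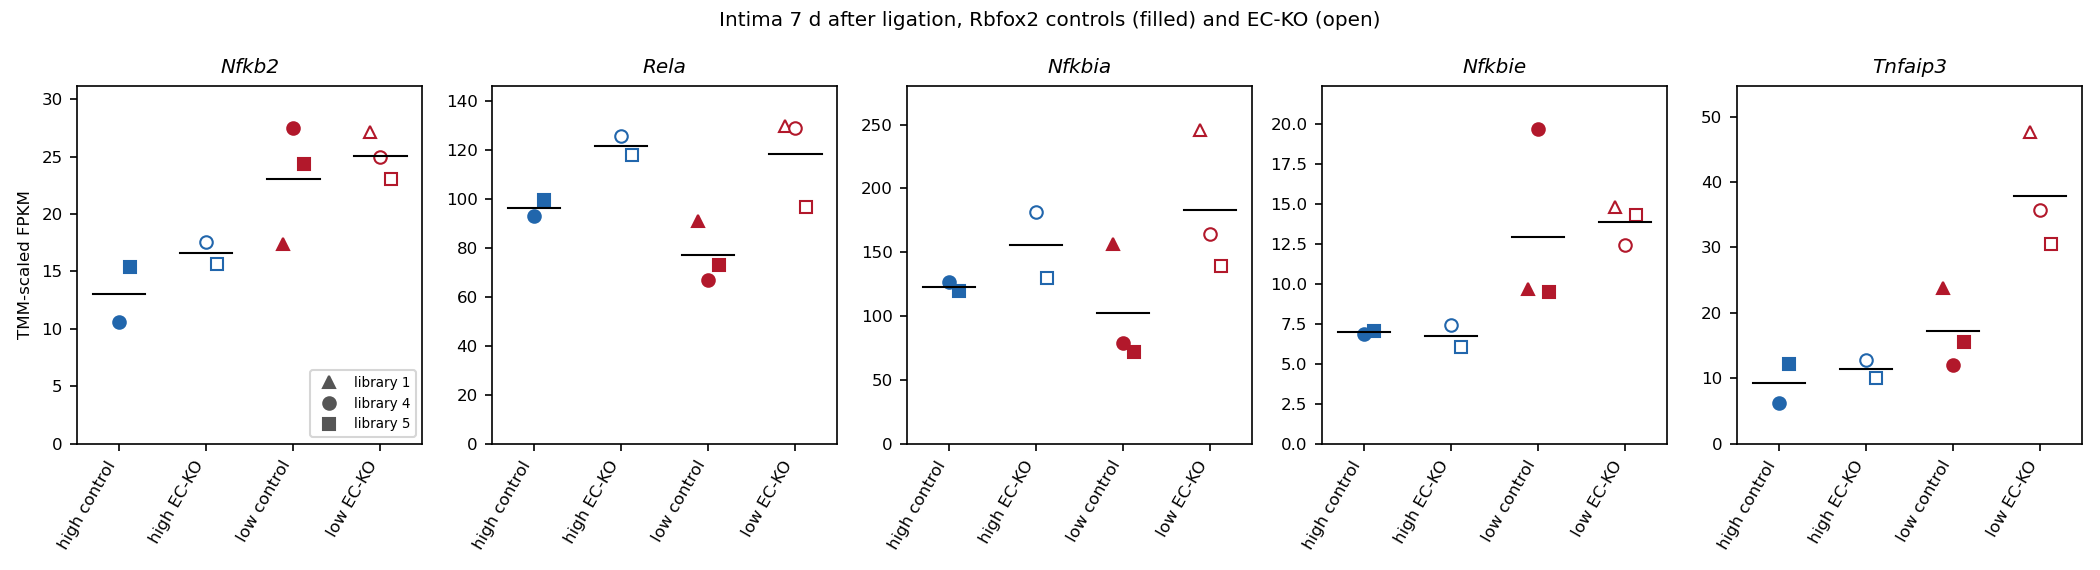
The level of 5 genes 7 d after ligation is plotted in TMM-scaled FPKM for high flow (blue) and low flow (red), controls filled and EC-KO open, with the library number as the symbol and bars at means. *Tnfaip3* lies at 30.4 to 47.6 in low-flow EC-KO intima, above the low-flow controls at 12.1 to 23.8, and *Rela* lies at 96.8 to 130 against 67.1 to 91.0.

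Under low flow, no gene of 13352 passed edgeR's test between EC-KO and control intima (0%, 880 at an unadjusted p under 0.05, 11 by DESeq2). Every EC-KO library lay above every control library for *Tnfaip3* and *Rela*, and for no other of the 10 genes. *Tnfaip3* was at 47.6, 35.7 and 30.4 FPKM in EC-KO and at 23.8, 12.1 and 15.6 in control libraries (1.16 ± 0.32, edgeR adjusted p = 0.692). *Rela* was at 130, 129 and 96.8 against 91.0, 67.1 and 72.9 FPKM (0.63 ± 0.19, edgeR adjusted p = 0.692). Of the 10 genes, *Relb* (0.60), *Nfkbia* (0.85) and *Nfkbiz* (1.14) also had an unadjusted p under 0.05, with libraries that overlapped, and DESeq2 called none of the 10.

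A single library decided this comparison. The control library numbered 1 held 1.10% of its counts in endothelial markers, against 0.528 and 0.572% in the other low-flow controls, and 0.00883% in the 8 lymphocyte markers, against 0.000639 and 0.000436%, and the part of these in the calls was not tested. Without it, 1476 genes passed, *Tnfaip3* (1.45, adjusted p = 0.024), *Nfkbia* (1.27, adjusted p = 0.0222) and *Rela* (0.75, adjusted p = 0.0292) among them. Without both libraries numbered 1, 374 genes passed, and of the 10 only *Nfkbia* did (1.00, adjusted p = 0.0483), with *Tnfaip3* at 1.25 (adjusted p = 0.0671). Leaving out any of the other 5 low-flow libraries left no gene called. Macrophage markers made up 0.103 to 0.186% of counts in low-flow EC-KO libraries and 0.0328 to 0.173% in low-flow controls, ranges that overlap. The fibroblast markers made up 0.0841 to 0.402% in low-flow EC-KO libraries and 0.0197 to 0.0786% in low-flow controls, without overlap, and their part in the *Tnfaip3* and *Rela* levels was not tested.

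Under high flow 1 of 13352 genes differed between the genotypes (0.00749%), none of the 10 by edgeR or DESeq2 and none of the 10 at an unadjusted p under 0.05. *Rela* was at 126 and 118 FPKM in EC-KO and at 93.3 and 99.6 in control libraries (0.35 ± 0.23, adjusted p = 1.00), and *Relb* at 20.9 and 20.1 against 14.2 and 14.5 (0.53 ± 0.28). Neither overlapped, but nor did *Nfkb2* (log2 fold change 0.38), *Nfkbia* (0.36) or *Nfkbiz* (0.70, the largest shift of the 10 genes). *Nfkb1*, *Rel*, *Nfkbie*, *Tnfaip3* and *Birc3* did overlap. Of the pathway lists at 7 d, 1 of 22 target genes tested passed between low and high flow in each genotype. In controls, where 2.4% of all genes passed, it was *Cxcl10*, an interferon-inducible chemokine. In EC-KO mice, where 1.09% did, it was *Gadd45b*, a stress-response gene. No upstream gene, receptor or other regulator passed.

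The cultured cells gave 1 library per condition, so these values carry no replicate check and no test, and their Poisson intervals cover counting error only. *Nfkbiz* had the widest range of the 10 genes, as a ratio, over the 4 cultures of the line. It was at 6.77 FPKM untreated (95% interval 6.16 to 7.43), 15.2 after plasma (14.2 to 16.2), 32.5 after platelets plus macrophages (31.1 to 34.0) and 67.1 after all additions (65.2 to 69.0), and none of these intervals overlap. In the primary cells, which received no additions, *Nfkbiz* was at 8.10 FPKM (control) and 7.03 (EC-KO).

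*Nfkbia* was at 53.2 FPKM in the untreated line, 45.0 after plasma, 80.7 after platelets plus macrophages and 91.8 after all additions. *Tnfaip3* was at 15.5, 9.07, 21.3 and 15.7 FPKM in the same order. Both were lowest with plasma alone, and both were higher with platelets and macrophages than untreated beyond counting error. *Relb* was lowest with all additions, at 5.98 FPKM, against 9.31 untreated, and *Nfkb1* was at 8.58, 4.68, 4.11 and 7.83 FPKM in that order. *Nfkb2* stayed between 12.6 and 15.4 and *Rela* between 80.6 and 87.7 FPKM. Macrophage markers made up 0.00206% of counts in the untreated line and 0.00572% with plasma. They made up 0.0391% where cells were added without plasma and 0.0303% where everything was added. The source of these markers and their part in the levels were not tested.

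**Figure D5:**
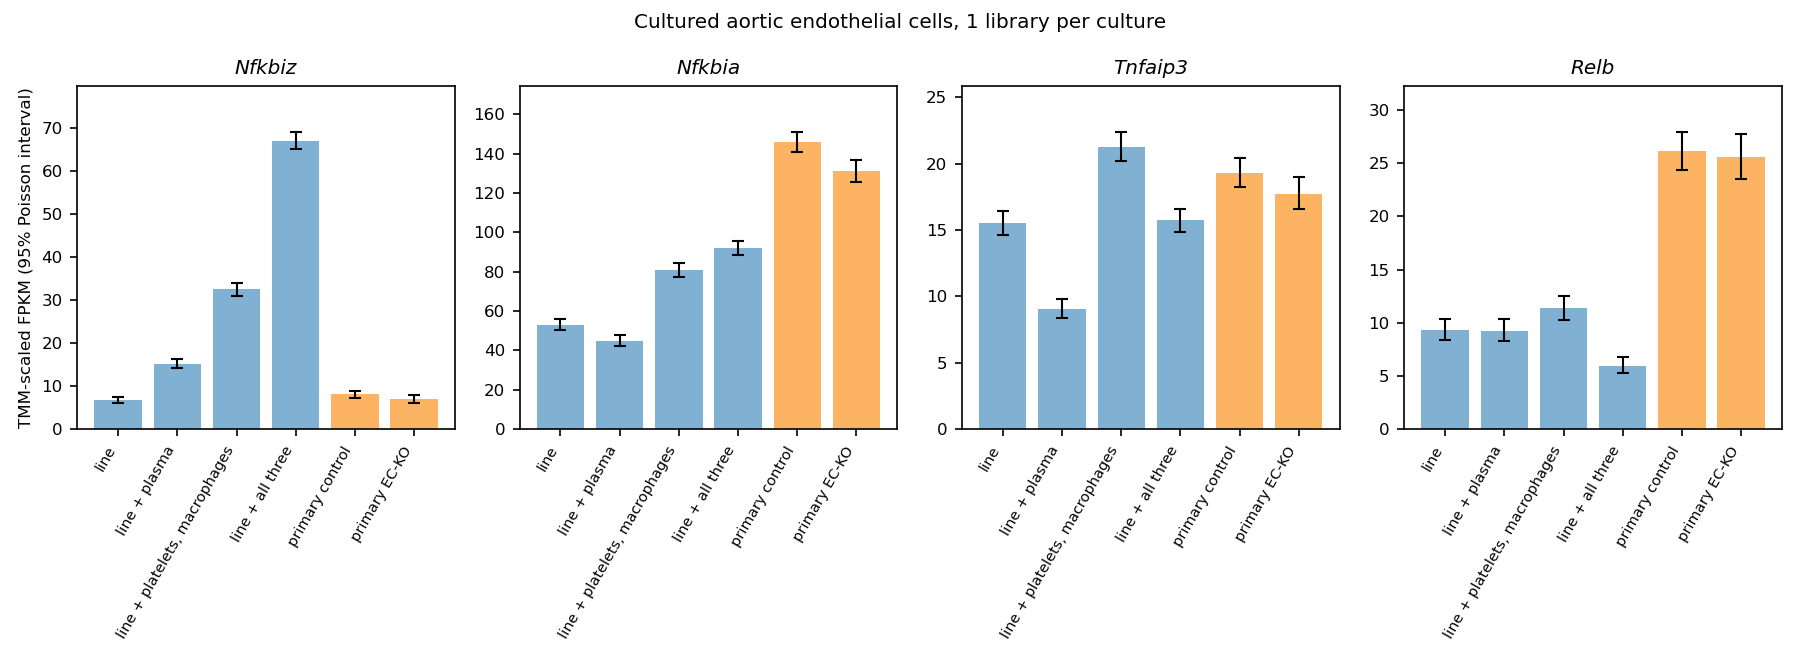
Bars give the level of 4 genes in TMM-scaled FPKM in 1 library per culture, blue for the immortalised line and orange for sorted primary cells, with 95% Poisson intervals that cover counting error only. *Nfkbiz* stands at 6.77, 15.2, 32.5 and 67.1 across the 4 cultures of the line and at 8.10 and 7.03 in primary cells.

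*Birc3* and *Nfkbie* were lower in every culture of the line than in the longer-read primary cells. *Birc3* lay at 5.10 to 5.37 FPKM in the 4 cultures of the line and at 23.5 and 23.6 in control and EC-KO primary cells. *Nfkbie* lay at 0.96 to 1.71 FPKM in the line and at 9.35 (8.38 to 10.4) in control and 6.06 (5.14 to 7.09) in EC-KO primary cells. These 2 libraries also differed in macrophage markers, which made up 0.0330% of counts in control and 0.000201% in EC-KO cells, and in *Ptprc*, the leukocyte antigen CD45, with 69 counts and 1 count, and their part in the levels was not tested. *Relb* was at 26.1 and 25.6 and *Nfkb2* at 27.2 and 24.4 FPKM in control and EC-KO primary cells, and *Rela* at 121 (118 to 125) and 177 (172 to 182). *Rbfox2* itself was at 8.58 and 0.60 FPKM in these cells. The eGFP+ primary library had 100 bp reads, and in it *Nfkbia* was at 251, *Rela* at 41.6, *Birc3* at 15.4 and *Nfkbiz* at 7.92 FPKM.

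The genes with the most similar profile over the 35 intimal libraries were sought among all other genes, as those with the smallest root mean square difference of mean-centred log2(FPKM + 1). For *Nfkbie* the nearest was *Tmem51* (a difference of 0.32). The nearest pair was for *Nfkbia* *Klf6* and *Zdhhc4* (0.32 each), for *Tnfaip3* *Ralgds* and *Eps8* (0.43 and 0.47) and for *Birc3* *Pfkp* and *Spop* (0.30 and 0.31). For the subunits they were *Bcl11a* and *Soat2* for *Nfkb1* (0.23 and 0.24), *Ints5* and *Srebf2* for *Nfkb2* (0.30 and 0.32), *Tigd5* and *Tbc1d25* for *Rela* (0.20 and 0.26), *Rbm42* and *Rnf220* for *Relb* (0.33 each) and *Susd1* and *Rab11fip1* for *Rel* (0.28 and 0.29). *Nfkbiz* was closest to *Gtf2ird2* and *Pcyt1a* (0.35 and 0.36). These profiles share libraries, depth and read length. With levels centred within each experiment (33 libraries), *Tmem51* stayed nearest to *Nfkbie* (0.26) and *Tigd5* to *Rela* (0.19), *Ralgds* stayed among the nearest to *Tnfaip3* and *Rab11fip1* to *Rel*, and for the other 6 genes both neighbours changed.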

How the data were processed

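Intimal and cell RNA was sequenced by the authors in 100 bp or 150 bp reads, and the untreated pools also in a run of 80 bp reads that was not used here. Per the submitters' processing notes, reads were aligned to mm9 with STAR 2.5.1b and quantified with RSEM 1.2.15. The authors deposited expected counts per gene for each library. Of these, 42 columns and 10 columns of reads trimmed to 100 bp were used (52 in all), and 152 other value columns were not. Between 5.2 and 19.32% of the expected counts were not whole, and these were rounded. The entry without a gene name was left out.

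From these counts, TMM factors were estimated and levels computed as count per effective length and scaled total. Each experiment was fitted on its own with edgeR 4.0.16 (quasi-likelihood, TMM, R 4.3.3), genes of low count being removed by filterByExpr and p-values adjusted over all genes by Benjamini-Hochberg, with 0.05 as threshold. The untreated pools were fitted per pair of groups, the treated and the 7 d libraries each together. The scripts were tested on simulated data. DESeq2 1.42.0 and the other alternatives are given in the closing section. Poisson intervals of 95% cover counting error only. The 10 genes were named as members, from each list up to 4 genes with the largest change among those past the threshold at 48 h of low against high flow, and for each gene its 2 nearest profiles, of which 1 is not reported here. Other list genes are named where few were called and were chosen after their values were seen. The genes and lists were chosen with earlier results of these data known.

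Low-flow libraries of EC-KO and control mice with the same number deviated together at 7 d (correlations of 0.49, 0.17 and 0.27 for numbers 1, 4 and 5). The libraries numbered 1 also shared a sequencing run. Deviations were taken from the mean of all libraries of a group, so these correlations are not independent. Whether the numbers, taken from the column names, pair the libraries was not tested. The values printed for that comparison are unpaired, since the fit with the number as a block called no gene either and changed no call of the 10 genes.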

Additional observations from a re-analysis of the deposited data

Results flagged for a closer look

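For *Nfkbia* the order of the low-flow and high-flow libraries was opposite in the IgG and PBS liposome controls, in both of which run and flow cannot be told apart. With IgG both low-flow libraries (167 and 151 FPKM) lay below both high-flow libraries (201 and 169), and with PBS liposomes both (203 and 186) lay above (170 and 155). The log2 fold changes were −0.16 and 0.32, a difference of −0.48 (IgG minus PBS liposomes), which was not tested, and neither change passed on its own (edgeR adjusted p = 0.638 and 0.346).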

How the results depend on the processing

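Of 883 values of the 10 genes under alternatives, 859 stayed on their side of the threshold, 8 lost a call, 16 gained a call and none of those called changed sign. Some uncalled values among the 859 did change sign, as given above for scaling to total counts. Leaving out 1 library in turn gave 702 further values, of which 23 lost and 6 gained a call. Some alternatives were chosen after seeing the data: leaving out low-flow pools A and B, scaling to total counts, reads trimmed to 100 bp, and leaving out the libraries numbered 1. Where a group is left with 1 library, that library is assumed to vary like the others. The counts over the second sequencing run and over the sum of both runs were not run. Low counts limit *Rel*, which fell below the filter in the untreated pools and passed under none of the alternatives that did test it there (adjusted p 0.243 to 0.305 against high flow).

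Numbers of genes called moved by over 1.5 times as follows, and the cause was not tested. At 48 h, low against high flow fell from 5195 to 2731 and low flow against sham from 4499 to 0 without pools A and B, where fewer samples remain. High flow against sham went from 0 to 101 with DESeq2 and 63 with no filter. Anti-GPIba against IgG went from 2216 to 3683 with DESeq2 and 4449 with only those groups fitted, and anti-Gr1 against IgG from 0 to 142 and 225. Clodronate against PBS liposomes went from 16 to 462 with DESeq2, 92 with no filter, 6 scaled to total counts, 0 with only those groups fitted and 80 with trimmed reads. Anti-GPIba against anti-Gr1 went from 0 to 354 with DESeq2, 76 with no filter, 71 with only those groups and 50 with trimmed reads. At 7 d, low against high flow went from 320 to 2207 with DESeq2, 654 with no filter, 3 with only those groups fitted and 3840 without the libraries numbered 1 in controls, and from 146 to 948, 221, 858 and 1100 in EC-KO mice. EC-KO against control went from 0 to 11 with DESeq2 and 374 without the libraries numbered 1 under low flow, and from 1 to 29 with DESeq2 and 0 scaled to total counts under high flow. The interaction went from 0 to 21 with DESeq2.

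With the replicate number as a block, clodronate against PBS liposomes gave 64 genes, anti-GPIba against IgG 3307, anti-GPIba against anti-Gr1 4, low against high flow at 7 d 2940 in controls and 1317 in EC-KO mice, and EC-KO against control 0 under low flow and 4 under high flow. The block changed no other call of the 10 genes than *Nfkb2* in controls (0.96, adjusted p = 0.0349) and *Tnfaip3* in EC-KO mice (1.55, adjusted p = 0.0168), both between low and high flow at 7 d. Deviations of same-numbered libraries correlated at −0.07 to 0.42 in the treated comparisons and at −0.03 to 0.22 between low and high flow at 7 d, and whether same-numbered libraries share animals is not given in the sources used here. For the untreated 48 h pools alone: No paired analysis was possible because their columns carry letters and no shared numbers.

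Leaving out 1 library in turn gave 4151 to 5411 genes for low against high flow, 2513 to 4757 for low flow against sham, 0 to 78 for high flow against sham, 1 to 89 for anti-GPIba, 0 to 0 for anti-Gr1, 0 to 937 for clodronate (937 without clodronate library 2), 0 to 150 for anti-GPIba against anti-Gr1, 2141 to 4231 and 1482 to 3839 for low against high flow with IgG and PBS liposomes, 3 to 3897 and 1 to 15 for low against high flow at 7 d in controls and EC-KO mice, 0 to 1476 and 0 to 0 for EC-KO against control under low and high flow, and 0 to 7 for the interaction. Against sham, *Nfkbie* lost its call without low-flow pool B or either of sham pools G and H (adjusted p 0.0578 to 0.0743), and *Birc3* without low-flow pool C or sham pool G (0.06 and 0.0907). With no filter, *Tnfaip3* passed at 7 d in EC-KO mice (1.78, adjusted p = 0.0401), and with only those groups fitted *Tnfaip3* (1.80, adjusted p = 0.00821) and *Nfkbie* (1.11, adjusted p = 0.0366) did.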
